A study of Mus musculus with 3 samples.

Results

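The genes examined here encode Polycomb repressive complex 2 (PRC2), and the question was how their own promoters stood in chromatin precipitated with PRDM2 and with dimethylated lysine 9 of histone H3 (H3K9me2). The members were the promoter probes whose gene name on the array was Ezh1, Ezh2, Eed, Suz12 or Jarid2. Probes were found for 4 of the 5 genes, 77 of the 237203 probes outside the array's controls: 20 for Ezh2, 19 for Eed, 17 for Suz12 and 21 for Jarid2. The array carried 0 probes under the name Ezh1, which was not analysed here. Each gene had 1 promoter, and these 4 were read against 16164 promoters with at least 3 usable probes on every array.

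All chromatin came from mouse C2C12 myoblasts, an established muscle precursor line, arrested in G0 by culture in 2% methylcellulose and fixed with 1% formaldehyde. PRDM2 chromatin was hybridised on 2 arrays and H3K9me2 chromatin on 1, each as Cy5-labelled immunoprecipitated (IP) DNA beside Cy3-labelled input DNA, with no exchange of dyes. The series holds neither an IP with a control antibody nor cycling cells, so every value is IP over input within quiescent cells. No label states that the PRDM2 arrays stem from separate cultures, so a p-value reflects only variation between these 2 arrays, which may be technical. The limma fits moderate this variation over all promoters or probes, so a p-value does not rest on the SD of 1 promoter alone. The scanner flagged 75.7% and 71.1% of probes as well above background in PRDM2 IP DNA and 78.9% in H3K9me2 IP DNA. Precision throughout is limited by having so few arrays.

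PRC2 places methyl groups on lysine 27 of histone H3, and this mark keeps genes silent, in muscle precursors among them genes of differentiated muscle. EZH2 is its catalytic subunit, with EZH1 as the paralogue found mainly in cells that do not divide; EED binds the methylated product and stimulates the enzyme; SUZ12 holds the complex together; JARID2 is an accessory subunit that brings the complex to DNA. PRDM2 (also RIZ) belongs to the PRDM family of zinc finger proteins and has been described as a methyltransferase of lysine 9 of histone H3, and dimethylation of that residue marks repressed chromatin.

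The stretches before the starts of the 4 genes are shown first. Of the 9 member probes that passed the PRDM2 test, 8 lay within 500 bp of the start. They were centred at +38 and +332 bp in Ezh2, +156 and +383 bp in Eed and +11 and +143 bp in Suz12. In Jarid2 they were centred at -339 and +137 bp. None of them was centred in the bases shown. Each line gives the 250 bases before the RefSeq start on build GRCm38.p6, 5′ to 3′ on the gene's strand, and capitals mark the bases covered by an array probe.
Ezh2 upstream, chr6:47595031-47595280 (minus strand): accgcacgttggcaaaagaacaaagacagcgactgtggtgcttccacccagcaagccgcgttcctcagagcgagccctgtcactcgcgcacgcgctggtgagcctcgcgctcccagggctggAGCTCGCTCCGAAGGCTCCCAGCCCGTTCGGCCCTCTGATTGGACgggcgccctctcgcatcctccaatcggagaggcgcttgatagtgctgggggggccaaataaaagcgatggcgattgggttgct
Eed upstream, chr7:89980977-89981226 (minus strand): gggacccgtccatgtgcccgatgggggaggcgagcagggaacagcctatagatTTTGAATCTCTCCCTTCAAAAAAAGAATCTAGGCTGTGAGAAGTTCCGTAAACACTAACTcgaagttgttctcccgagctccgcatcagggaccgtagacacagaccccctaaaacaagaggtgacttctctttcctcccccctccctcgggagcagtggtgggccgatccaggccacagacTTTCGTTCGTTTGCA
Suz12 upstream, chr11:79992856-79993105 (plus strand): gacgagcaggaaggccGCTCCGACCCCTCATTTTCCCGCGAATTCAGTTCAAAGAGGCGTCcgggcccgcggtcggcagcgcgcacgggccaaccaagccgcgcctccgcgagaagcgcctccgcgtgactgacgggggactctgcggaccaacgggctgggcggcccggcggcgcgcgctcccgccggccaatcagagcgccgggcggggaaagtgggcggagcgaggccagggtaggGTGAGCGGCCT
Jarid2 upstream, chr13:44730524-44730773 (plus strand): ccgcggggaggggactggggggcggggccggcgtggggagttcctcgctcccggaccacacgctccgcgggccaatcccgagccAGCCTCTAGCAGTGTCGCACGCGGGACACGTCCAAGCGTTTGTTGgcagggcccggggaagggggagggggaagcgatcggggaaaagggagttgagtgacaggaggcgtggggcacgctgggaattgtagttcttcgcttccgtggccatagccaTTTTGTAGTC
Start positions on the array were set by matching probe letters to these RefSeq windows, because no label or header names the genome build behind the array's coordinates. Jarid2 has 2 RefSeq starts 497 bp apart, and its distances are counted from the upstream one. All 4 windows were rich in CpG dinucleotides, with 31 in the 300-base RefSeq window of Ezh2, 17 in that of Eed, 41 in that of Suz12 and 24 in that of Jarid2, against a median of 7 over 32851 mouse windows. On either strand the letters TTTCCCGC, a site form of the E2F cell cycle factors, occurred in the Suz12 window 219 bases before the start and in 1.07% of all windows. The other E2F form searched, TTTGGCGC, occurred in the Ezh2 window 3 bases after the start and in 0.51% of all windows. The GC box GGGCGG was found 3 times in the Suz12 window, once in that of Jarid2 and in 35.66% of all windows, and the CCAAT box was found 3 times in the Ezh2 window, once in each of the other windows and in 37.41% of all windows. Matches of letters are a description of these windows and were not tested as binding sites.

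PRDM2 signal over input was above the median probe at the promoters of Ezh2, Suz12 and Jarid2, and did not pass the test at Eed. The log2 ratio of IP over input, centred on the median probe of each array and averaged over the probes of a promoter, was 0.91 and 0.80 on PRDM2 arrays 1 and 2 for Ezh2. For Jarid2 it was 0.72 and 0.88, and for Suz12 0.69 and 0.73. Eed, the reader of the methyl mark, had 0.60 and 0.34. Both arrays were above 0 for all 4 genes. The Ezh2 and Jarid2 ranges overlapped, as did those of Jarid2 and Suz12, whereas both values of Suz12 were above both of Eed.

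The mean was 0.86 ± 0.07 for Ezh2 (SD, n = 2 arrays; limma adjusted p = 0.00468), 0.80 ± 0.11 for Jarid2 (SD, n = 2 arrays; limma adjusted p = 0.00676), and 0.71 ± 0.03 for Suz12 (SD, n = 2 arrays; limma adjusted p = 0.0119). For Eed it was 0.47 ± 0.19 (SD, n = 2 arrays; limma adjusted p = 0.076). Thus 3 of the 4 promoters passed upward, where 46.9% of all 16164 promoters did and 1.08% passed downward. Among all promoters the Ezh2 mean stood at percentile 72.5, Jarid2 at 69.2, Suz12 at 64.2 and Eed at 47.6, and the median of the 4 was 0.76 against 0.50 over all promoters. With the median promoter as 0, or with the median over probes in place of the mean, 0 of the 4 passed, and with normexp background correction 0 of all 16164 promoters passed by limma (1928 had an unadjusted p under 0.05).

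**Figure D1:**
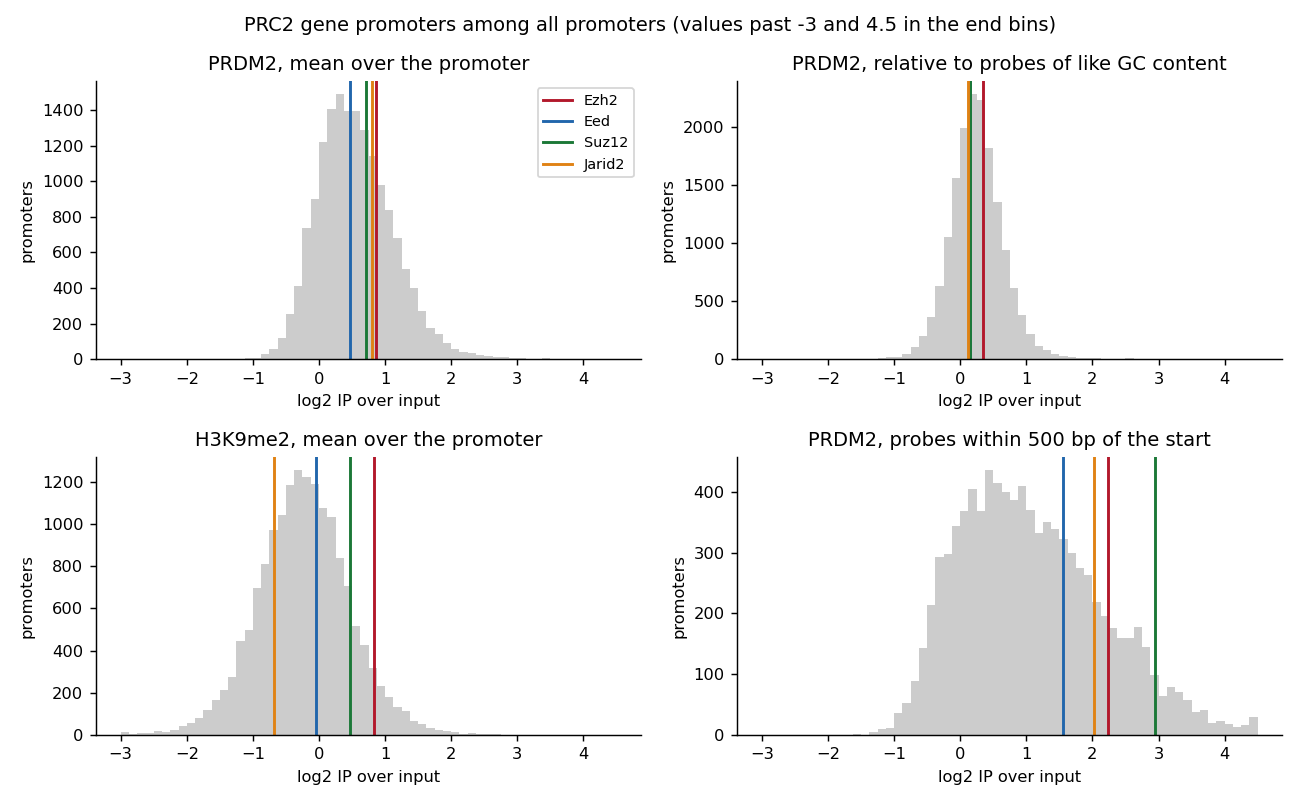
Promoters of Ezh2, Eed, Suz12 and Jarid2 (coloured lines) among all promoters (grey bars, number of promoters per bin of log2 IP over input) for PRDM2 as the mean of 2 arrays, PRDM2 relative to probes of like GC content, H3K9me2 on 1 array, and PRDM2 over probes within 500 bp of the start. The PRDM2 lines lie between 0.47 and 0.86 over whole promoters and between 1.55 and 2.94 near the start, and in the GC panel they lie between 0.12 and 0.35.

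Jarid2 rested on few probes. Of its 21 probes 2 had input signal that was not well above background on at least 1 PRDM2 array, and over the other 19 its PRDM2 mean was 0.17 and 0.36 on arrays 1 and 2. When only probes with input well above background entered the fit, the Jarid2 call ended, at 0.28 (limma adjusted p = 0.279). Of the 4 genes, Ezh2 and Suz12 had 0 probes whose input was not well above background, and Eed had 1. The same fit, centred anew on the probes kept, gave 0.88 for Ezh2, 0.74 for Suz12 and 0.50 for Eed. With the centring unchanged, Ezh2 and Suz12 stayed at 0.86 and 0.71, and Eed had 0.47.

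Relative to probes of like GC content, none of the 4 promoters stood out in PRDM2 chromatin. GC content is the share of G and C letters in a probe, and IP over input varied with it across the whole array. The class median of PRDM2 fell to -0.37 at 38% GC, against 0.76 at 22%, and was 4.61 at 80%, and 19.9% of all probes at 50% GC or more passed upward in the test per probe, against 0.964% of those under 50%. After the median of all probes in the same class of GC content was taken off each probe, Ezh2 had 0.40 and 0.29 on PRDM2 arrays 1 and 2, Eed 0.27 and 0.01, Suz12 0.13 and 0.17, and Jarid2 0.04 and 0.20. The means were 0.35 ± 0.08 for Ezh2, 0.14 ± 0.18 for Eed, 0.15 ± 0.03 for Suz12 and 0.12 ± 0.11 for Jarid2 (SD, n = 2 arrays). The limma adjusted p was 0.261 for Ezh2, 0.685 for Eed, 0.65 for Suz12 and 0.737 for Jarid2. By limma 0 of the 4 passed in either direction, and 0 had an unadjusted p under 0.05, where 16.7% of all promoters passed upward and 1.4% downward. Over all promoters the median on this scale was 0.24, and the members stood at percentiles 62.0 for Ezh2, 38.8 for Eed, 40.3 for Suz12 and 36.5 for Jarid2. With 2 arrays the standard error of each value was 0.21, so a shift of the size seen for Ezh2 could not be told from 0. With the highest 3 neighbouring probes of each promoter all 4 passed on this scale, as did 64.8% of all promoters.

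**Figure D2:**
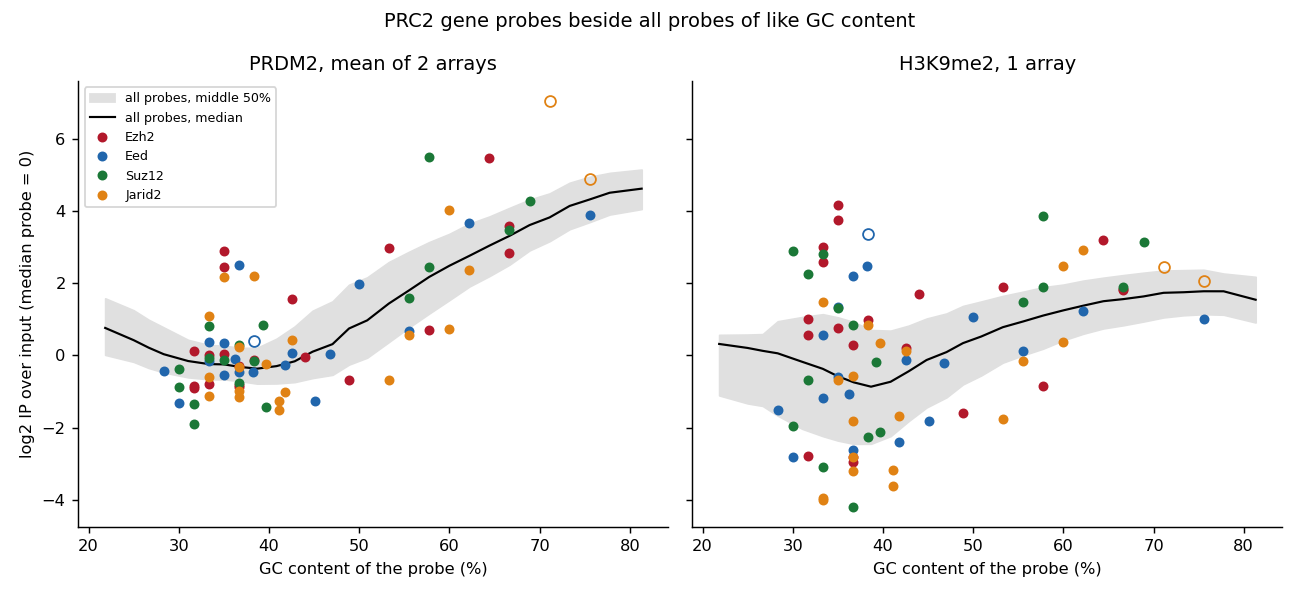
Log2 IP over input of the 77 member probes (points, coloured by gene; open circles had input not well above background on at least 1 PRDM2 array) against the GC content of the probe, for PRDM2 as the mean of 2 arrays and for H3K9me2 on 1 array, with the median (line) and the middle 50% (band) of all probes. Most member probes lie along the line of all probes; in the PRDM2 panel 26 of the 77 were above the median of their GC class on both arrays, and 34.5% of all probes were.

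Close to the start all 4 promoters averaged above the median probe in PRDM2 chromatin on both arrays. Over the probes centred within 500 bp of the start, Suz12 had 2.64 and 3.24 (4 probes), Ezh2 2.21 and 2.24 (5 probes), Jarid2 1.95 and 2.09 (7 probes) and Eed 1.56 and 1.53 (5 probes). The Jarid2 values here and below include the probe 339 bp before the start, at 7.71 and 6.35. Its input was not well above background on either PRDM2 array. The remaining Jarid2 probes of the window ran from -0.81 to 4.41 on array 1 and from -1.22 to 3.62 on array 2. The window was not fitted without the dim probe. In that window all 4 passed upward, with limma adjusted p between 0.00023 for Suz12 and 0.00236 for Eed, where 53.9% of the 9026 promoters with a matched start did and 1.11% passed downward. Their percentiles among these promoters were 94.2 for Suz12, 84.3 for Ezh2, 80.5 for Jarid2 and 68.6 for Eed, and the median over all was 0.95. The remaining probes, farther out, averaged 0.10 and -0.04 for Suz12, 0.48 and 0.32 for Ezh2, 0.11 and 0.28 for Jarid2 and 0.26 and -0.09 for Eed. The GC content of the probes was also higher near the start than farther out, at 62.2% against 36.4% for Suz12, 58.1% against 37.9% for Ezh2, 56.2% against 40.8% for Jarid2 and 50.9% against 39.0% for Eed. Relative to probes of like GC content the near-start means were 0.26 for Suz12, 0.20 for Ezh2, 0.23 for Jarid2 and 0.07 for Eed, and 0 of the 4 passed by limma, where 3.04% of these promoters passed upward and 0.609% downward.

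**Figure D3:**
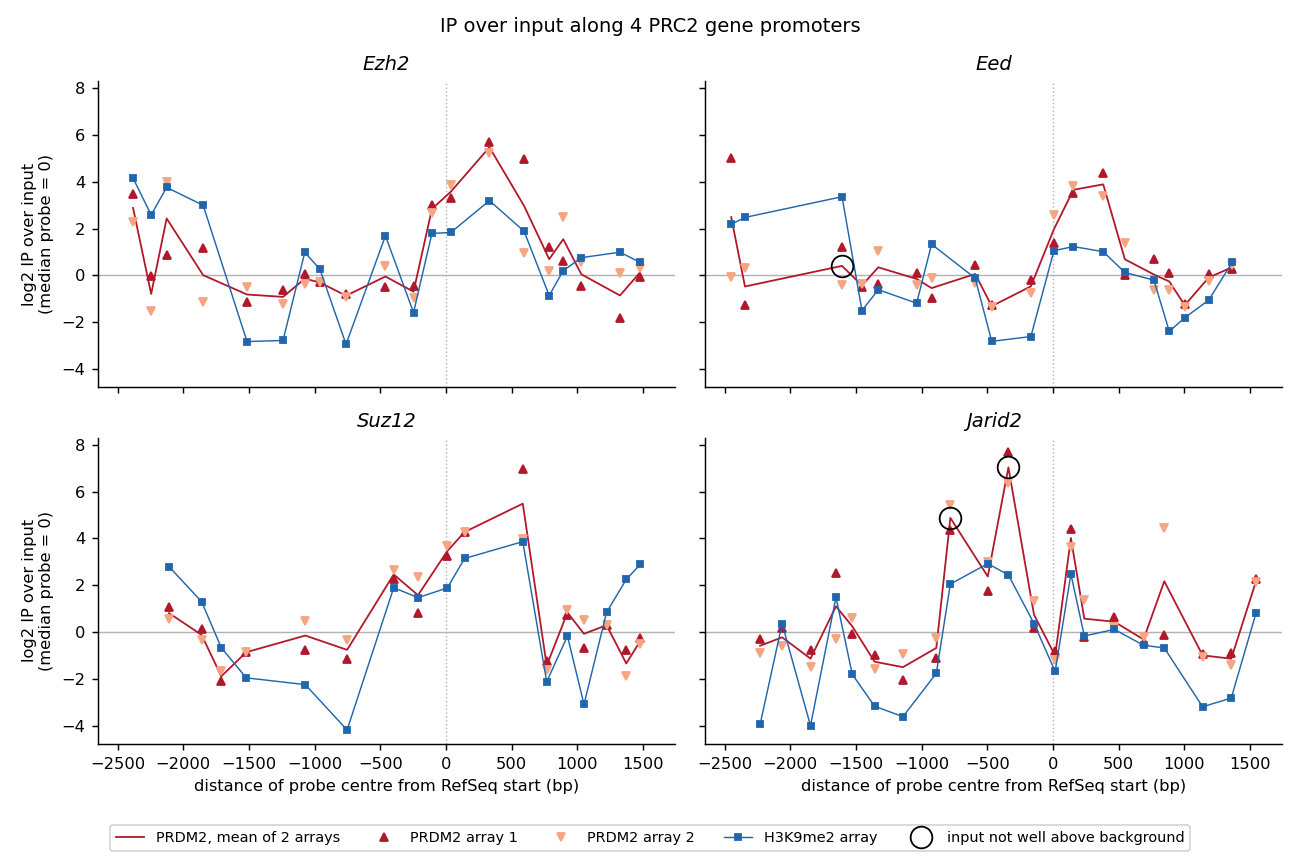
Log2 IP over input of each probe (vertical axis, median probe of the array at 0) by its distance from the RefSeq start in bp for the 4 promoters, with PRDM2 arrays 1 and 2 as triangles, their mean as a red line and the H3K9me2 array as blue squares; a black ring marks probes with input not well above background on at least 1 PRDM2 array. PRDM2 peaks between the start and 586 bp after it for Ezh2, Eed and Suz12 and on both sides of the start for Jarid2, and H3K9me2 is high in the far upstream probes of Ezh2 and again after its start.

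In the test per probe 9 of the 77 member probes passed upward in PRDM2 chromatin and 0 downward, where 4.98% of 236323 probes passed upward and 0.00381% downward. Jarid2 had 3 and the others 2 each. Of the 3 in Jarid2, those 781 and 339 bp before the start had input not well above background on at least 1 PRDM2 array. All 9 had a GC content of 50% or more and 8 lay within 500 bp of the start, and 4 of them stood at or above the 75th percentile of their GC class. With normexp, the value table, a variance trend or the median promoter as 0, 0 of all probes passed by limma. Across the probes of a gene the 2 PRDM2 arrays correlated at Pearson r = 0.89 for Suz12, 0.81 for Jarid2, 0.70 for Ezh2 and 0.61 for Eed, and with the GC class medians taken off at 0.70, 0.59, 0.46 and 0.28 in the same order. These correlations run over 17 to 21 neighbouring probes that share arrays, fragments and base composition, and they are a description.

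The probes with the highest and the lowest PRDM2 ratio of each gene, among those with input well above background on both PRDM2 arrays, are printed with CpG dinucleotides in capitals, at the coordinates and on the strand of the array. A probe of Jarid2 with dim input is added because its ratio was the highest of all member probes.
Ezh2 probe at +332 bp, highest, chr6:47524262-47524306: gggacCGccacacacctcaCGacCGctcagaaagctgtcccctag
Ezh2 probe at -1240 bp, lowest, chr6:47525827-47525886: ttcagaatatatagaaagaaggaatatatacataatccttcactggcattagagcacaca
Eed probe at +383 bp, highest, chr7:89855763-89855807: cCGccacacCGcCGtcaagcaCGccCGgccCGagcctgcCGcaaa
Eed probe at -466 bp, lowest, chr7:89856605-89856664: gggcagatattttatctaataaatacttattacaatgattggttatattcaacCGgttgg
Suz12 probe at +586 bp, highest, chr11:79809865-79809909: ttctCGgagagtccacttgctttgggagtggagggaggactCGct
Suz12 probe at -1710 bp, lowest, chr11:79807562-79807621: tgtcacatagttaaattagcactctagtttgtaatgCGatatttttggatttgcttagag
Jarid2 probe at +137 bp, highest, chr13:44741861-44741905: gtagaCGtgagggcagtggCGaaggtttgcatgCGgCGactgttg
Jarid2 probe at -339 bp, input not well above background, chr13:44741385-44741429: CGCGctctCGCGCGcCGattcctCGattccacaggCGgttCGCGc
Jarid2 probe at -1142 bp, lowest, chr13:44740577-44740632: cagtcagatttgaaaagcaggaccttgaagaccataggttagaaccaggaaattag
The probes high in PRDM2 chromatin held 2 to 10 CpG dinucleotides, and the low ones 0 or 1.

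For Suz12 the highest probe, 586 bp after the start, had 6.98 and 3.98 on PRDM2 arrays 1 and 2 and 3.86 on the H3K9me2 array. It stood at percentile 99.4 of its GC class in PRDM2 chromatin and 99.7 in H3K9me2 chromatin. The arrays were 3 log2 units apart there, and the probe did not pass (limma adjusted p = 0.0707). For Ezh2 the highest probe, 332 bp after the start, had 5.70 and 5.25 in PRDM2 chromatin and 3.20 in H3K9me2 chromatin (limma adjusted p = 0.0483 for PRDM2), at percentiles 98.6 and 97.1 of its GC class.

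The highest probe of Eed lay 383 bp after the start and had 4.38 and 3.40 in PRDM2 chromatin and 1.01 in H3K9me2 chromatin. Its GC content was 75.6%, and among probes of that class it stood at percentile 31.9 for PRDM2 and 21.2 for H3K9me2, so it was high on the array but not among its like. The highest bright probe of Jarid2, 137 bp after the start, had 4.41 and 3.62 in PRDM2 chromatin and 2.47 in H3K9me2 chromatin, at percentiles 88.0 and 88.1. The lowest probes, 466 to 1710 bp before the starts, averaged between -0.92 for Ezh2 and -1.89 for Suz12 in PRDM2 chromatin. At those of Eed, Suz12 and Jarid2 the PRDM2 IP signal was not well above background on either array, so these ratios lie near the floor. PRDM2 IP signal was well above background on both arrays at 11 of 20 Ezh2 and 11 of 19 Eed probes. For Suz12 this held at 10 of 17 probes, and for Jarid2 at 11 of 21.

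The dim probe of Jarid2, 339 bp before the start, had 7.71 and 6.35 in PRDM2 chromatin and 2.44 in H3K9me2 chromatin. Its input signal was -5.86 and -6.77 (log2) against the median input of its GC class on PRDM2 arrays 1 and 2, and -3.05 on the H3K9me2 array. The probes 781 and 496 bp before the start also had low input there, between -3.90 and -3.53 on the 3 arrays. Input over the whole Jarid2 promoter stood at percentiles 12.5 and 6.43 of all promoters on the PRDM2 arrays and 20.5 on the H3K9me2 array. The part of low input in the Jarid2 ratios was not tested beyond the fits with bright input given here.

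**Figure D4:**
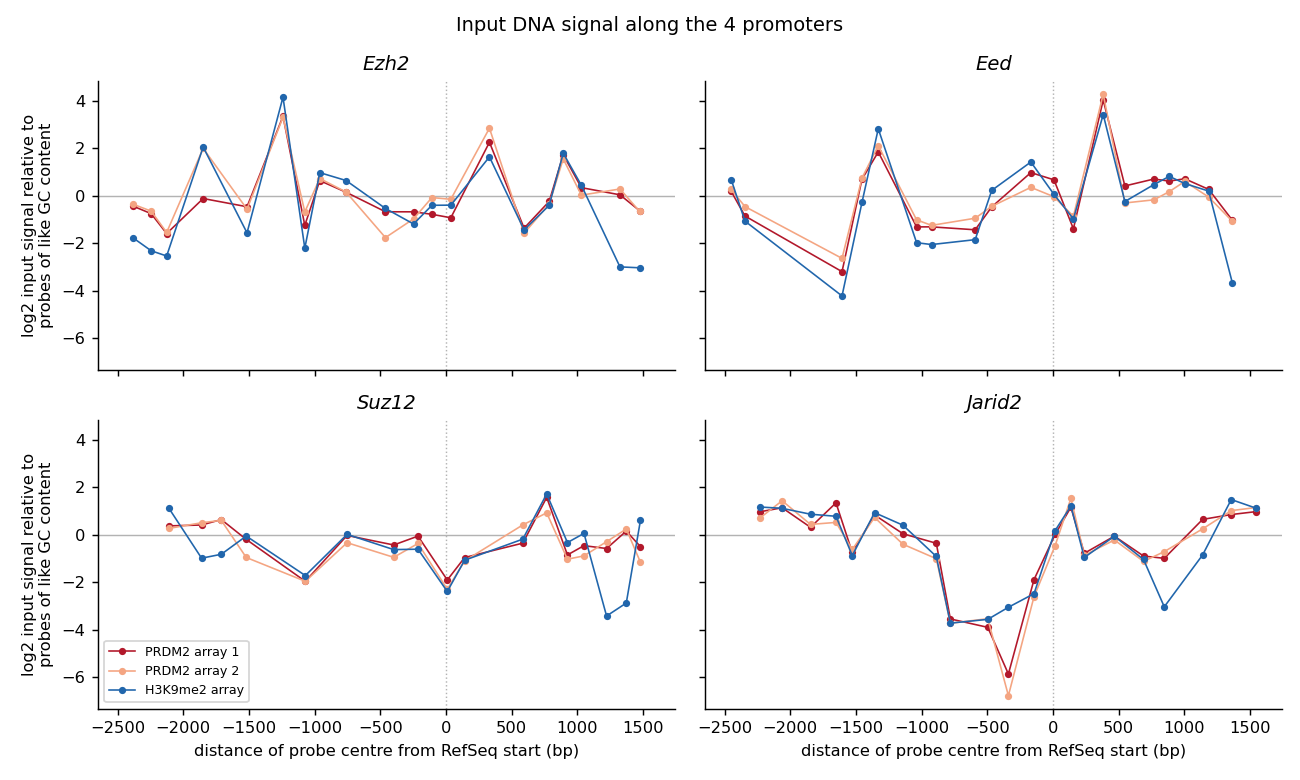
Log2 input signal of each probe relative to probes of like GC content (vertical axis) by distance from the RefSeq start in bp, for PRDM2 arrays 1 and 2 and the H3K9me2 array. At 7 of the 77 probes the H3K9me2 array's input lies over 2 log2 units from the mean of the PRDM2 inputs, 6 times below it and once above, and between 781 and 339 bp before the start of Jarid2 they drop, to -5.86 and -6.77 on the PRDM2 arrays.

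In H3K9me2 chromatin the 4 promoters were spread more widely than in PRDM2 chromatin. The promoter mean was 0.83 for Ezh2, 0.46 for Suz12, -0.05 for Eed and -0.69 for Jarid2, on 1 array and therefore without a test. Ezh2 stood at percentile 93.9 of all promoters, Suz12 at 85.4, Eed at 60.9 and Jarid2 at 24.4, and the median over all promoters was -0.23. The order was the same relative to probes of like GC content, at 0.83 for Ezh2, 0.45 for Suz12, 0.09 for Eed and -0.69 for Jarid2. Input on the H3K9me2 array was well above background at 16 of 20 Ezh2, 14 of 17 Suz12, 14 of 19 Eed and 20 of 21 Jarid2 probes. With only probes of bright input on all 3 arrays the means were 0.65 for Ezh2, 0.49 for Suz12, -0.15 for Eed and -0.91 for Jarid2.

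Ezh2 had high H3K9me2 probes far upstream and again around its start. The 4 probes over 1800 bp before the start had 2.58 to 4.16 in H3K9me2 chromatin although their GC content was only 33.3% to 35.0%, and they stood at percentiles 91.1 to 99.8 of their GC class. IP signal was well above background at all 4 of them, and input at 2. In PRDM2 chromatin the same probes ran from -0.04 to 3.49 on array 1 and from -1.54 to 3.99 on array 2. These probes were singled out after their values were seen. Within 500 bp of the start Ezh2 had 1.39 in H3K9me2 chromatin, at percentile 91.2.

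Suz12, the scaffold subunit, had 2.10 in H3K9me2 chromatin within 500 bp of the start, at percentile 98.6 of the promoters with a matched start, and its remaining probes averaged -0.04. Relative to probes of like GC content its near-start value was 0.79, at percentile 88.9. Eed was the only member whose mean was below 0 near its start, at -0.42 (percentile 30.8). Its probes 466 and 168 bp before the start, of 30.0% and 36.7% GC, had -2.82 and -2.61. Those 8, 156 and 383 bp after the start had 1.06, 1.23 and 1.01. Relative to probes of like GC content the Eed mean there was -0.97 (percentile 17.4). Jarid2 had 0.92 near its start (percentile 79.8), and its remaining probes averaged -1.49. Of the 7 Jarid2 probes over 1000 bp before the start, 4 were under -2 in H3K9me2 chromatin, with a GC content of 33.3% to 41.1%.

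PRDM2 signal exceeded H3K9me2 signal at Jarid2 and did not pass the test elsewhere. Jarid2 averaged 0.80 ± 0.11 in PRDM2 chromatin (SD, n = 2 arrays) and -0.69 in H3K9me2 chromatin, a difference of 1.49 (SE 0.35; limma adjusted p = 0.0146). The difference was 0.52 for Eed (limma adjusted p = 0.22), 0.25 for Suz12 (limma adjusted p = 0.535) and 0.02 for Ezh2 (limma adjusted p = 0.955). So 1 of 4 passed upward, where 41.1% of all promoters did and 1.6% passed downward, and the members' median difference was 0.39 against 0.85 over all promoters. Ezh2 stood at percentile 10.4 of all promoters in this difference, Suz12 at 16.4, Eed at 27.3 and Jarid2 at 90.3. The fit assumes that the lone H3K9me2 array varies as the PRDM2 pair does. No GC class medians were taken off in it, and at 80% GC these were 4.61 for PRDM2 and 1.54 for H3K9me2. Relative to probes of like GC content Jarid2 had 0.12 in PRDM2 chromatin and -0.69 in H3K9me2 chromatin. The difference on that scale was not tested. The Jarid2 call ended with loess at 0.55 (limma adjusted p = 0.187), with normexp at 0.23 (limma adjusted p = 0.734), with the median promoter as 0, with the median over probes and with the highest 3 neighbouring probes.

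Within 500 bp of the start the Jarid2 difference was 1.1 (limma adjusted p = 0.125), at percentile 51.5. There 0 of the 9026 promoters passed by limma, while 3818 had an unadjusted p under 0.05. In that window Eed had the widest gap of the 4, with 1.55 in PRDM2 chromatin and -0.42 in H3K9me2 chromatin (difference 1.97, limma adjusted p = 0.0558, percentile 90.2). The -0.42 includes -2.82 and -2.61 at the probes 466 and 168 bp before the start.

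Runs of at least 3 neighbouring probes above the 95th percentile of an array were found in 0 of the 4 promoters, either for PRDM2 on both arrays or for H3K9me2. Such a run occurred in 43 promoters (0.27%) for PRDM2 and in 104 (0.64%) for H3K9me2. The longest in a member was 1 probe for PRDM2, and 2 probes for H3K9me2 at Ezh2 and at Suz12.

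A further 8 PRC2 genes were listed, the histone-binding subunits Rbbp4 and Rbbp7 and 6 accessory genes, and 7 of the 8 had a promoter on the array. In PRDM2 chromatin 5 of the 7 passed upward and 0 downward, where 46.9% of all promoters passed upward. Their median was 1.29, and that of Ezh2, Eed, Suz12 and Jarid2, of which 3 passed, was 0.76. The mean GC content of their probes was higher, with a median of 49.7% against 42.7% for those 4 genes. Epop, an elongin-binding subunit, had 1.75 and 1.67 on PRDM2 arrays 1 and 2, and Rbbp4 and Rbbp7 had 1.33 and 1.65, and 1.43 and 1.36. Phf1, a Polycomb-like protein, had 1.17 and 1.41 and its relative Phf19 had 0.94 and 0.53, and both passed. Mtf2, the third Polycomb-like gene, had -0.03 and 0.90, and Aebp2, a zinc finger subunit, -0.31 and -0.13, and neither passed (limma adjusted p = 0.158 and 0.384). Relative to probes of like GC content Mtf2 passed upward at 0.65 ± 0.68 (SD, n = 2 arrays; limma adjusted p = 0.0439). Its values on that scale were far apart, 0.16 and 1.13 on PRDM2 arrays 1 and 2. Aebp2 passed downward at -0.60 ± 0.15 (SD, n = 2 arrays; limma adjusted p = 0.0466), with -0.70 and -0.49. The other 5 did not pass, where 16.7% of all promoters passed upward and 1.4% downward.

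Polycomb repressive complex 1, which binds the mark that PRC2 sets and ubiquitinates histone H2A, had 21 promoters of 20 genes on the array, of 21 listed. In PRDM2 chromatin 19 of these passed upward (46.9% of all promoters did), with a median of 1.13, and 6 passed upward relative to probes of like GC content (16.7% of all promoters did). The highest were Pcgf2, a RING finger subunit, at 3.91 and 3.29, and its close relative Bmi1 at 2.08 and 1.93. The lowest were Phc1, a Polyhomeotic subunit, at 0.09 and 0.14, and the RING finger gene Pcgf5 at -0.40 and -0.24. The promoters of Ezh2, Eed, Suz12 and Jarid2 all lay below the PRC1 median, and the difference between the groups was not tested. The median GC content of the PRC1 promoters was 49.0%, against 42.7% for those 4 genes. Relative to probes of like GC content the PRC1 median was 0.30. On that scale Ezh2 lay above it at 0.35, and Eed, Suz12 and Jarid2 lay below it.

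The enzymes of lysine 9 methylation and of lysine 27 demethylation were set beside PRC2, since they write the mark measured here or erase the mark PRC2 writes. All 5 lysine 9 methyltransferase genes passed upward in PRDM2 chromatin, with a median of 1.06, and 3 passed upward relative to probes of like GC content, against the same 46.9% and 16.7% of all promoters. Ehmt1 had 2.24 and 1.78 and its partner Ehmt2 1.56 and 1.63, Setdb1 had 1.07 and 1.05, Suv39h1 0.71 and 0.98 and Suv39h2 0.61 and 0.69. Of the lysine 27 demethylases Kdm6a had 1.44 and 0.99 and its Y-linked relative Uty 2.27 and 2.38, and both passed. Input of Uty was well above background at 0 and 1 of its 14 probes on the PRDM2 arrays, -4.00 and -4.31 log2 against the median input of its GC class, whereas at Kdm6a it was bright at all 20 probes. Kdm6b had -0.26 and -0.16 and did not pass (limma adjusted p = 0.41). In H3K9me2 chromatin Kdm6a had 0.41 and Kdm6b -1.39.

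**Figure D5:**
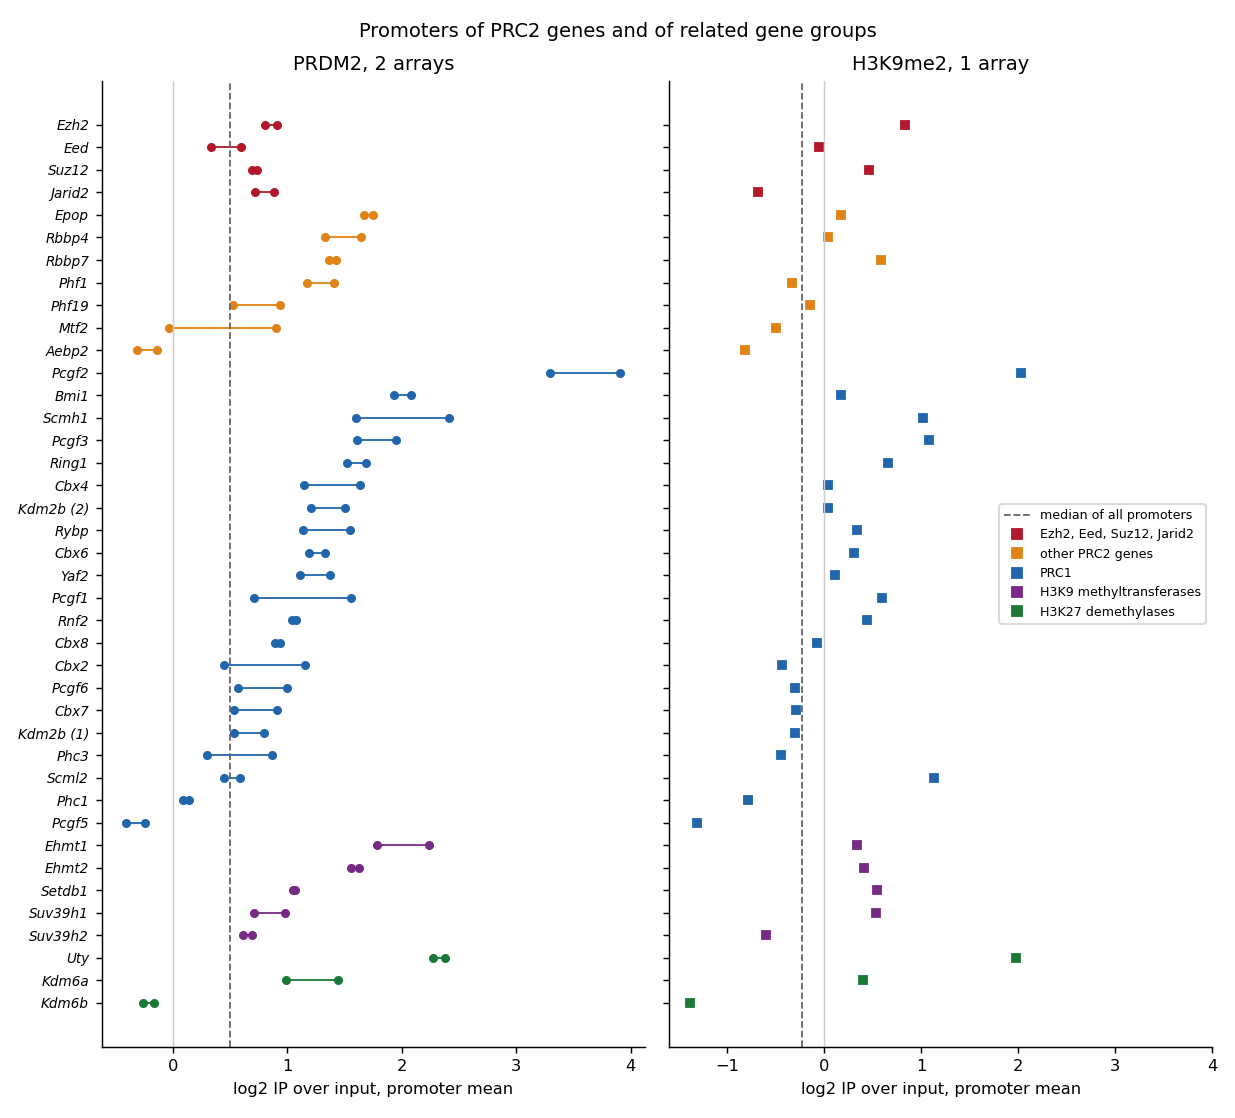
Promoter means of log2 IP over input for Ezh2, Eed, Suz12 and Jarid2 and 4 related groups, with both PRDM2 arrays as joined points (left) and the H3K9me2 array as squares (right); dashed lines mark the median of all promoters, 0.50 for PRDM2 and -0.23 for H3K9me2. Ezh2, Eed, Suz12 and Jarid2 lie between 0.34 and 0.91 in PRDM2 chromatin, and Pcgf2, at 3.91 and 3.29, lies farthest to the right; Uty had almost no bright input.

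The promoters most like each member over the 3 arrays were sought among those with at least 8 probes and a GC content within 3 percentage points, by Euclidean distance between the 3 log2 ratios. Nearest to Ezh2 were Xrcc2 and Tceal5 (distances 0.06 and 0.10, 5859 candidates), and nearest to Eed were Tcba1 and Zp1 (0.03 and 0.04, 5397 candidates). Nearest to Suz12 were Itch and Repin1 (both 0.10, 5597 candidates), and nearest to Jarid2 were Wwp2 and Fzd7 (0.04 and 0.05, 5861 candidates). None of the 4 had another member among its nearest pair. With 2 promoters drawn from 5397 to 5861 candidates, this tells nothing of likeness among the members. The GC limit also kept Jarid2 (45.9%) from being paired with Eed (42.1%) or Suz12 (42.5%).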

How the data were processed

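Labelled input (Cy3) and IP (Cy5) DNA were hybridised on a custom 2-colour Agilent array of mouse promoters. The deposited processed intensities came from Agilent Feature Extraction (version 10.5.1.1), per the file headers, with background subtraction and linear dye normalization, and the deposited raw intensities were mean spot signals with a median local background. Per the file headers, deposited flags (0 or 1, other values) marked outlier, saturated and well-above-background spots, and the deposited log10 ratios of red over green served only as a check. The authors' deposited value table holds log2 values of IP over input, a scale found by setting it against the scanner values (r = 0.965, 0.940 and 0.972; medians 0.124, 0.103 and 0.278); no source used here states how it was centred or made. Nor does any name the build of the array's coordinates.

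The log2 ratio of processed red over green signal was centred on each array's median probe, after 773, 107 and 218 outlier spots were left out (PRDM2 array 1, PRDM2 array 2, H3K9me2 array). Before centring, the medians were -0.91, -0.80 and -0.27. Probes of 1 gene name formed a promoter, split at gaps over 10000 bp, and their mean was its value. For comparison with like GC content, the median of all probes in a class 2 points wide (28 classes of at least 500 probes) was subtracted per array. PRDM2 was tested against 0, and PRDM2 minus H3K9me2 over all 3 arrays, with limma 3.58.1 (lmFit, eBayes; R 4.3.3) over all promoters or probes, with Benjamini-Hochberg adjusted p under 0.05. The fits were run on simulated promoters with known shifts and independent normal errors, which checks the code and not the p-values of these arrays. Starts were placed by matching probe letters to RefSeq windows (GRCm38.p6), which anchored 9403 promoters. Named genes were all members, each member's probes of highest and lowest PRDM2 ratio, its 2 nearest promoters, all other listed PRC2, lysine 9 methyltransferase and lysine 27 demethylase genes, and the 2 highest and 2 lowest PRC1 genes. Members and lists were chosen with earlier results of these data known. Alternatives were normexp, loess, the median promoter as 0, the value table, bright input, other summaries of a promoter, at least 8 probes, a variance trend, other GC corrections and leaving out either PRDM2 array. The window of 500 bp was added after the data were seen.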

Additional observations from a re-analysis of the deposited data

Results flagged for a closer look

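At Jarid2 the effects of the 2 antibodies differed by the test of the difference itself: PRDM2 minus H3K9me2 was 1.49 (limma adjusted p = 0.0146), from 0.72 and 0.88 on the PRDM2 arrays and -0.69 on the H3K9me2 array. In the same test 41.1% of all promoters passed upward. The call rests on 1 H3K9me2 array and on ratios from which no GC class medians were taken off. Of the 21 Jarid2 probes, 2 had input not well above background on at least 1 PRDM2 array. Over the other 19 the PRDM2 values were 0.17 and 0.36, and with bright input the difference was 1.07. In the alternatives it kept its direction, with values from 0.23 with normexp to 2.29 with the highest 3 neighbouring probes and adjusted p from 0.00307 to 0.734.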

How the results depend on the processing

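No paired analysis was possible because the H3K9me2 group has 1 array and its label carries no replicate number. In PRDM2 chromatin 3 of the 4 member promoters passed upward, and 0 did with normexp, with the median promoter as 0 and with the median over probes, settings in which 0%, 17.2% and 5.69% of all promoters passed upward. Taking the median promoter as 0 lowers every PRDM2 value by about the promoter median of 0.50 and raises every H3K9me2 value. Relative to like GC content 0 passed, but 1 with loess (Jarid2) and 4 with the highest 3 neighbouring probes, where 15.9% and 64.8% of all promoters did. For PRDM2 minus H3K9me2 1 passed, and 0 with normexp, loess, the median promoter as 0, the median over probes, the highest 3 neighbouring probes and the added window of 500 bp. Per probe 9 passed upward, and 0 with normexp, the median promoter as 0, the value table and a variance trend, settings in which 0 of 236323 probes passed by limma and 40884 to 88378 had an unadjusted p under 0.05; with loess 1 member probe passed downward.

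Directions turned in the following settings. With normexp the values were -0.057 for Jarid2 against like GC content, -0.15 for Ezh2 in PRDM2 minus H3K9me2, 0.15 for Eed in H3K9me2, -0.016 for Phc1, and 0.48 and 0.12 for the lowest probes of Eed and Suz12. With loess they were -0.094 for Eed against like GC content, -0.69, -0.21 and -0.57 for Ezh2, Eed and Suz12 in the difference, 0.26 and 0.20 for Eed and Jarid2 in H3K9me2, -0.12 for Phf1, -0.32 for Phf19 and -0.72 for the highest probe of Eed. With the median promoter as 0 they were -0.034 for Eed against 0, -0.089, -0.075 and -0.11 for Eed, Suz12 and Jarid2 against like GC content, -0.71, -0.22 and -0.48 for Ezh2, Eed and Suz12 in the difference, 0.18 for Eed in H3K9me2, -0.066 for Mtf2 and -0.38 for Phc1. With the median over probes they were -0.073 and -0.17 for Eed and Jarid2 against 0, -0.15 for Jarid2 against like GC content, -0.86 and -1.0 for Ezh2 and Suz12 in the difference and -0.27 for Phc1. With the value table they were -0.10 for Jarid2 against like GC content and -0.12 for Ezh2 in the difference, and with bright input -0.056 for Jarid2 against like GC content. With the highest 3 neighbouring probes they were 2.67 and 2.47 for Eed and Jarid2 in H3K9me2, 0.57 for Aebp2, 1.28 for Kdm6b and 0.80 for Pcgf5, and within 500 bp of the start 0.92 for Jarid2 in H3K9me2. The cause was not tested. Leaving out either PRDM2 array gave 0.80 to 0.91 for Ezh2, 0.34 to 0.60 for Eed, 0.69 to 0.73 for Suz12 and 0.72 to 0.88 for Jarid2, as values with no test; the sign turned for Ezh2 in the difference without PRDM2 array 1 (-0.03) and for Mtf2 against 0 without PRDM2 array 2 (-0.03).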

Other observations

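Ezh2 and Suz12 had their highest PRDM2 probe at a place where H3K9me2 was also high for the GC content: the Ezh2 probe 332 bp after the start stood at percentiles 98.6 for PRDM2 and 97.1 for H3K9me2, and the Suz12 probe 586 bp after the start at 99.4 and 99.7. The highest probe of Eed stood at 31.9 and 21.2, and the highest bright probe of Jarid2 at 88.0 and 88.1. These probes were picked by their PRDM2 ratio, so their PRDM2 percentiles are no separate finding. The Suz12 probe did not pass in PRDM2 chromatin (limma adjusted p = 0.0707). At the far upstream end of Ezh2, the probe 2382 bp before the start had 3.49 and 2.28 in PRDM2 chromatin and 4.16 in H3K9me2 chromatin at a GC content of 35.0%, percentiles 98.0 and 99.8. This probe did not pass in PRDM2 chromatin (limma adjusted p = 0.0721) and was singled out after its values were seen. Its input against the median of its GC class was -0.44 and -0.36 (log2) on the PRDM2 arrays and -1.77 on the H3K9me2 array. Across the probes of each gene, PRDM2 and H3K9me2 ratios correlated at Pearson r = 0.82 for Jarid2, 0.62 for Ezh2, 0.62 for Suz12 and 0.52 for Eed, and with GC class medians taken off at 0.67, 0.69, 0.42 and 0.60 in the same order; these points are neighbouring probes that share base composition and array design, and the values are a description.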
